A study of Mus musculus with 9 samples.

Results

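The genes described here are 10 markers of monocytes and of the cells they give rise to after entering a tissue: Ly6c2, Plac8, Chil3, Ms4a4c, Ms4a8a, S100a4, S100a6, Vim, Lgals3 and Thbs1. They were chosen by symbol, through the Ensembl identifiers of the count table, and all 10 were found among its 53801 genes. Classical monocytes leave the bone marrow, circulate in blood and enter inflamed tissue or tumors in response to chemokines such as Ccl2, where they turn into macrophages. In gliomas these blood-derived cells share the CD11b marker with microglia, the resident macrophages of the brain, so a CD11b+ sort collects them together. Ly6c2, Plac8 and Chil3 mark the incoming monocytes, whereas Vim, Lgals3 and the S100 genes are also high in macrophages derived from them.

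RNA-seq was performed on CD11b+ cells sorted by flow cytometry from dissociated tumor-bearing hemispheres of C57BL/6J male mice, 10 to 12 weeks old at the start, with GL261 gliomas expressing luciferase and tdTomato. The mice were given saline (CTR, 2 libraries), OAT-1746, an arginase inhibitor, at 50 mg/kg (2 libraries), an antibody against PD-1 at 2.5 mg/kg between days 8 and 14 after implantation (anti-PD-1, 2 libraries), or both agents (COMB, 3 libraries). The sources give both day 28 and day 21 as the day of sorting. One anti-PD-1 library, replicate 2, carries a treatment label that names a different target and was grouped by its title. The comparisons ask how each treatment, and the addition of either agent to the other, changed the expression of these genes. The glioma cells were 1 transplanted line, so tumors of other origin were not covered.

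Library totals ranged from 13048075 counts in COMB replicate 1 to 18796479 in anti-PD-1 replicate 2, and OAT-1746 replicate 2 had 16784406. The filter on low counts was passed by 12538 protein-coding genes, the tested genes, including all 10 markers. Values below are CPM, that is counts relative to the scaled total over these tested genes, not to the library totals above. OAT-1746 replicate 2 stood apart from the other libraries. Its log2 CPM correlated with theirs at r from 0.911 to 0.956 over the tested genes (genes are not independent replicates), and its correlation with OAT-1746 replicate 1 was 0.956. Values without this library are given beside the OAT-1746 medians and calls of the markers.

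The markers differed in position, length and in how well their reads can be told from those of other genes. On GRCm38, Ly6c2 (ENSMUSG00000022584) lies at chr15:75108158-75111970, Plac8 (ENSMUSG00000029322) at chr5:100553725-100572245 and Chil3 (ENSMUSG00000040809) at chr3:106147554-106167564, all on the minus strand. Ms4a4c (ENSMUSG00000024675, chr19:11404770-11427246, plus strand) and Ms4a8a (ENSMUSG00000024730, chr19:11067471-11081102, minus strand) belong to 1 family and lie on the same chromosome. S100a4 (ENSMUSG00000001020, chr3:90603771-90606045) and S100a6 (ENSMUSG00000001025, chr3:90612882-90624181) are neighbors on the plus strand. Vim (ENSMUSG00000026728, chr2:13573927-13582826), Thbs1 (ENSMUSG00000040152, chr2:118111876-118127133) and Lgals3 (ENSMUSG00000050335, chr14:47367751-47386160) are on the plus strand as well. The exons of S100a4 overlapped those of Gm42674 on the same strand over 51.7% of their bases, and Gm42674 had 0 counts in every library. Whether this overlap affected the counts of S100a4 was not tested. Of all 50-base words of a gene's transcripts, 47.4% were shared with other genes for S100a4 (all of them with Gm42674), 26.9% for Chil3 (16.9% with Chil4), 14.5% for Ly6c2 (13.9% with Ly6c1), 8.2% for Ms4a4c (7.7% with Ms4a4b) and 1.9% for Thbs1, and none for Plac8, Ms4a8a, S100a6, Vim and Lgals3. Chil4 had 0 counts in all 9 libraries.

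Promoters are shown for the 4 markers with a match in the search described below. The 300 bases run from 250 before to 50 after a start site and come from RefSeq (GRCm38.p6, 5′ to 3′ on the strand of the gene). Promoter entries were found for 9 of the 10 markers, some with more than 1 start site. Both strands were searched for PU.1 (GAGGAAGT), C/EBP (TTGCNNAA) and AP-1 (TGANTCA), and matches are in capitals.
Ly6c2, chr15:75111922-75112221, minus strand, PU.1 letters: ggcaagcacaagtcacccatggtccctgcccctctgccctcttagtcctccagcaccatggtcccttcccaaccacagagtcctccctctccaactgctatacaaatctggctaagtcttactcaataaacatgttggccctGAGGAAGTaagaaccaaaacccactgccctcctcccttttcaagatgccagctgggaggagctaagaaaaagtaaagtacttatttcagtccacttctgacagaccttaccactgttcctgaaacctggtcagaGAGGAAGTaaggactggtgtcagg
S100a4, chr3:90603520-90603819, plus strand, PU.1 letters on the opposite strand: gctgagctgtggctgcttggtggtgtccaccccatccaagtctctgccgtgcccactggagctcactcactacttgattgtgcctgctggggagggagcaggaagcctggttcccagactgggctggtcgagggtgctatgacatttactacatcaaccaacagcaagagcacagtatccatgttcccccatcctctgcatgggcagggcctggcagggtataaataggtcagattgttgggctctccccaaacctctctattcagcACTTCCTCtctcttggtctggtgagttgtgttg
Plac8, chr5:100563047-100563346, minus strand, C/EBP letters on the opposite strand: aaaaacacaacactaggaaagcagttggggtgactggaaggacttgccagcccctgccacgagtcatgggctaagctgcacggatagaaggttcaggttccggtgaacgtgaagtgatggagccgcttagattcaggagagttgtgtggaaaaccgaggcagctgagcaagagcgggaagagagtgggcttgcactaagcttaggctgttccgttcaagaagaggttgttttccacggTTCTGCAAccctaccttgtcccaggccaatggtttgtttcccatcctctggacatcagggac
Ms4a8a, chr19:11081054-11081353, minus strand, AP-1 letters: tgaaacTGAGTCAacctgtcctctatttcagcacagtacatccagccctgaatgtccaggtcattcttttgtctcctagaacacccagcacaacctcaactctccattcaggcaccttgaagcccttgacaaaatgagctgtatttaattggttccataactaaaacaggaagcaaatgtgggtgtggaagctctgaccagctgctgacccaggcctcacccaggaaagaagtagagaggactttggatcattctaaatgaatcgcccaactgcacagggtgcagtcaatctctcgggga
PU.1 letters occurred 2 times in the Ly6c2 window and once in that of S100a4, against 3.2% of all 32851 promoter entries. C/EBP letters were found for Plac8 only (10.8% of all entries) and AP-1 letters for Ms4a8a only (7.81%). The window at another Plac8 start site (chr5:100572156-100572455), not shown, had 0 matches. A search for an interferon-stimulated response element found none in the 9 markers (3.44% of all entries). A match describes the letters and is not evidence of binding.

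Per exon length, the markers spanned a wide range of levels. Over the 9 libraries, RPKM (CPM per kilobase of exon) averaged 378 ± 153 for Lgals3 (SD, n = 9), 364 ± 171 for Plac8, 243 ± 106 for Ms4a4c, 229 ± 95.7 for Vim and 187 ± 110 for Ly6c2. Chil3 (108.5 ± 41.4 RPKM), S100a6 (77.4 ± 45.2 RPKM) and Thbs1 (40.3 ± 26.2 RPKM) followed, and Ms4a8a (6.996 ± 3.40 RPKM) and S100a4 (2.18 ± 1.65 RPKM) were lowest. The order differed between groups. Mean RPKM of Plac8 exceeded that of Lgals3 in OAT-1746 (228 against 161) and anti-PD-1 (583 against 506.5), and was lower in CTR and COMB. On the same scale Lyz2, a lysozyme gene counted below among those of classical monocytes, was at 2752. The place of S100a4 rests on its full exon length, much of it shared with Gm42674, and in bulk samples fewer cells of a type and less RNA per cell cannot be told apart.

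**Figure D1:**
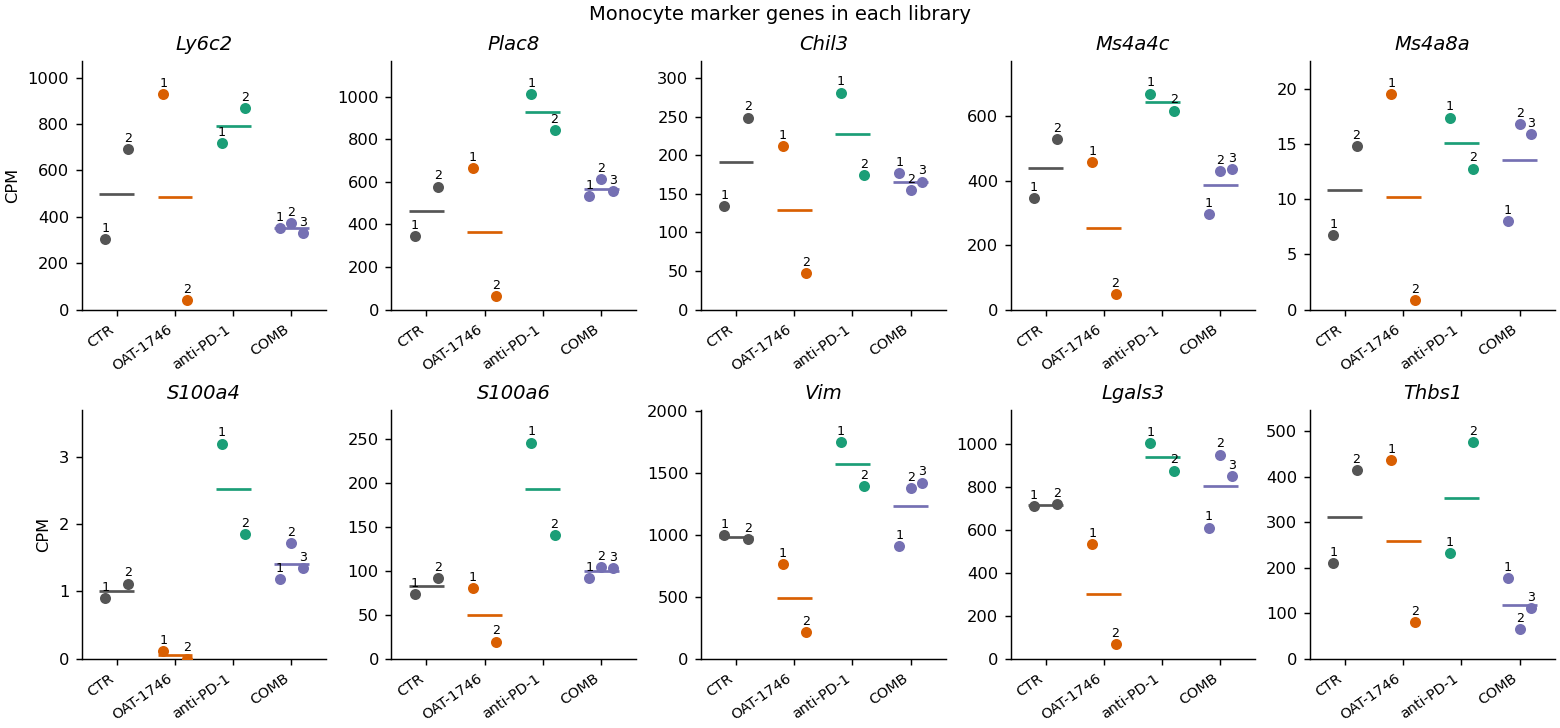
CPM of the 10 markers in each of the 9 libraries, in 1 panel per gene with the axis starting at 0. Points are libraries, numbered by replicate, and horizontal lines are group means. OAT-1746 replicate 2 is the lowest library for 9 genes and COMB replicate 2 for Thbs1.

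Ly6c2 encodes a surface protein of the Ly6 family by which mouse classical monocytes are recognized. It was at 303 and 692 CPM in CTR, 929 and 39.7 CPM in OAT-1746, 716 and 869 CPM in anti-PD-1, and 352, 372 and 330.4 CPM in COMB. The OAT-1746 group thus held the highest and the lowest library of all 9, whereas both anti-PD-1 libraries lay above both CTR libraries. Its relative Ly6c1, which endothelial cells express, had 7.10 and 11.5 CPM in OAT-1746, with no drop in replicate 2. Ly6a and Ly6i, other genes of the family, were at 75.1 and 38.5 CPM in OAT-1746 replicate 2 and at 387 and 194 CPM in replicate 1.

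Plac8, a small cysteine-rich protein of myeloid cells, was at 345 and 578 CPM in CTR, 663 and 63.5 CPM in OAT-1746, 1014 and 844 CPM in anti-PD-1, and 535, 613 and 558 CPM in COMB. Chil3 encodes a secreted chitinase-like protein of monocytes and alternatively activated macrophages, and was at 134 and 249 CPM in CTR, 212 and 47.3 CPM in OAT-1746, 281 and 174 CPM in anti-PD-1, and 176, 154 and 166 CPM in COMB. As with Ly6c2, OAT-1746 replicate 1 was within or above the CTR values for Plac8 and Chil3 and only replicate 2 lay below them.

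The Ms4a genes encode membrane proteins with 4 spans. Ms4a4c was at 346 and 529.6 CPM in CTR, 457 and 47.4 CPM in OAT-1746, 670.1 and 617 CPM in anti-PD-1, and 296, 430.5 and 436 CPM in COMB. Ms4a8a, at a far lower level, was at 6.79 and 14.8 CPM in CTR, 19.6 and 0.858 CPM in OAT-1746, 17.4 and 12.8 CPM in anti-PD-1, and 8.01, 16.8 and 15.9 CPM in COMB. The 15 counts behind the value in OAT-1746 replicate 2 compared with 336 in replicate 1. Their relatives Ms4a4a, Ms4a6b, Ms4a6d and Ms4a7 also had their lowest value in OAT-1746 replicate 2, at 13.4, 116, 93.6 and 32.8 CPM.

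S100a6, which encodes a calcium-binding protein, was at 73.4 and 91.4 CPM in CTR, 80.8 and 19.5 CPM in OAT-1746, 246 and 141 CPM in anti-PD-1, and 91.9, 105 and 103 CPM in COMB. S100a4 had 15 and 19 counts in CTR, 2 and 0 in OAT-1746, 46 and 33 in anti-PD-1, and 16, 26 and 19 in COMB. It was the only marker near 0 in both OAT-1746 libraries, and a count of 0 in replicate 2 allows up to 0.172 CPM (3 counts). Intervals on counts cover counting error only. The relatives S100a1, S100a10, S100a11 and S100a13 were lower in OAT-1746 replicate 2 (7.67, 16.5, 19.7 and 8.698 CPM) than in replicate 1 (10.3, 64.0, 70.2 and 19.2 CPM). S100a8 and S100a9, which neutrophils express, were instead higher in replicate 2, at 40.2 and 75.9 CPM against 23.5 and 45.5 CPM.

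Vim encodes an intermediate filament protein and Lgals3 a galactose-binding lectin that macrophages secrete. Vim was at 993 and 962 CPM in CTR, 760.0 and 212 CPM in OAT-1746, 1745 and 1390 CPM in anti-PD-1, and 904, 1377 and 1419 CPM in COMB. Lgals3 was at 710.5 and 722 CPM in CTR, 533 and 66.3 CPM in OAT-1746, 1006 and 877 CPM in anti-PD-1, and 611, 951 and 851 CPM in COMB. For these 2 genes neither OAT-1746 library reached the lower of the CTR libraries, and replicate 2 accounted for most of the distance. Lgals1, another galectin, was at 164 and 27.2 CPM in OAT-1746 and 242 and 252 CPM in CTR.

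Thbs1 encodes thrombospondin-1, a secreted matrix protein that binds CD47 and CD36 and can activate TGF-β. It was at 209.6 and 415 CPM in CTR, 436 and 79.8 CPM in OAT-1746, 232 and 476 CPM in anti-PD-1, and 177, 64.9 and 111 CPM in COMB. It differed from the other markers in that all 3 COMB libraries lay below both CTR libraries, and COMB replicate 2 was the lowest library. The 2 libraries of a group also differed for this gene in CTR and in anti-PD-1.

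In the comparison of OAT-1746 with CTR, the fitted log2 fold changes of all 10 markers were below 0. Excluding S100a4, they ran from -0.04 (SE 0.97) for Ly6c2 to -1.26 (SE 0.70) for Lgals3, with 95% confidence intervals of -2.23 to 2.15 and -2.83 to 0.31. None of the 10 was called by edgeR's quasi-likelihood test at a Benjamini-Hochberg adjusted p under 0.05, the threshold used throughout, and neither was any other gene (0.0% of 12538). At an unadjusted p under 0.05, 4049 genes differed, of which 2036 were lower (16.2% of those tested), and 1 marker, S100a4, was among these. DESeq2 called 1972 genes, with S100a4 as the only marker, and limma voom with quality weights called 0. The median log2 fold change of the markers was -0.64, against 0.01 over all tested genes. It was the same with S100a4 set at the near end of its counting interval. The groups did not overlap for 3 of 10 markers (Vim, Lgals3 and S100a4), all lower, against 32.1% of tested genes lower without overlap.

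These values depended on single libraries, and the median of the markers most on those of OAT-1746. Without CTR replicate 2, the log2 fold changes of Ly6c2 (0.68), Plac8 (0.08), Ms4a8a (0.59) and Thbs1 (0.30) were above 0. Without OAT-1746 replicate 2, the median of the markers was 0.12 and 4 of 10 were below 0. Ly6c2 then had a log2 fold change of 0.92 (SE 0.37) with an adjusted p of 0.320 by edgeR (range over its alternatives 0.00187 to 1.00, the lowest from the fit without replicate 1, where the log2 fold change was -3.65), Plac8 0.54 and Ms4a8a 0.87, while Lgals3 (-0.41), Vim (-0.35), S100a6 (-0.01) and S100a4 (-3.02) stayed below 0. No marker was called, nor was any of the 12538 genes, whereas 278 genes but no marker were called without COMB replicate 1. Without replicate 1 instead, the median was -3.04 and edgeR called all 10 markers lower, and 29.1% of the tested genes in either direction. Since the markers were chosen for their low values in replicate 2, these calls restate that choice and are no test of OAT-1746. That fit also assumes that the single remaining library varies like those of the other groups.

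For S100a4, 2 counts in OAT-1746 against 34 in CTR gave a ratio of 0.0571 with an exact 95% counting interval of 0.00665 to 0.223. All OAT-1746 libraries lay below all CTR libraries for this gene, with an edgeR adjusted p of 0.0610. Its adjusted p was 0.285 without OAT-1746 replicate 2, 0.0386 with no filter on low counts and 0.00892 by DESeq2 (range over its alternatives 0.00892 to 0.285). The fitted log2 fold change, -3.95 (SE 0.85), depends on the prior count added to 0.

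**Figure D2:**
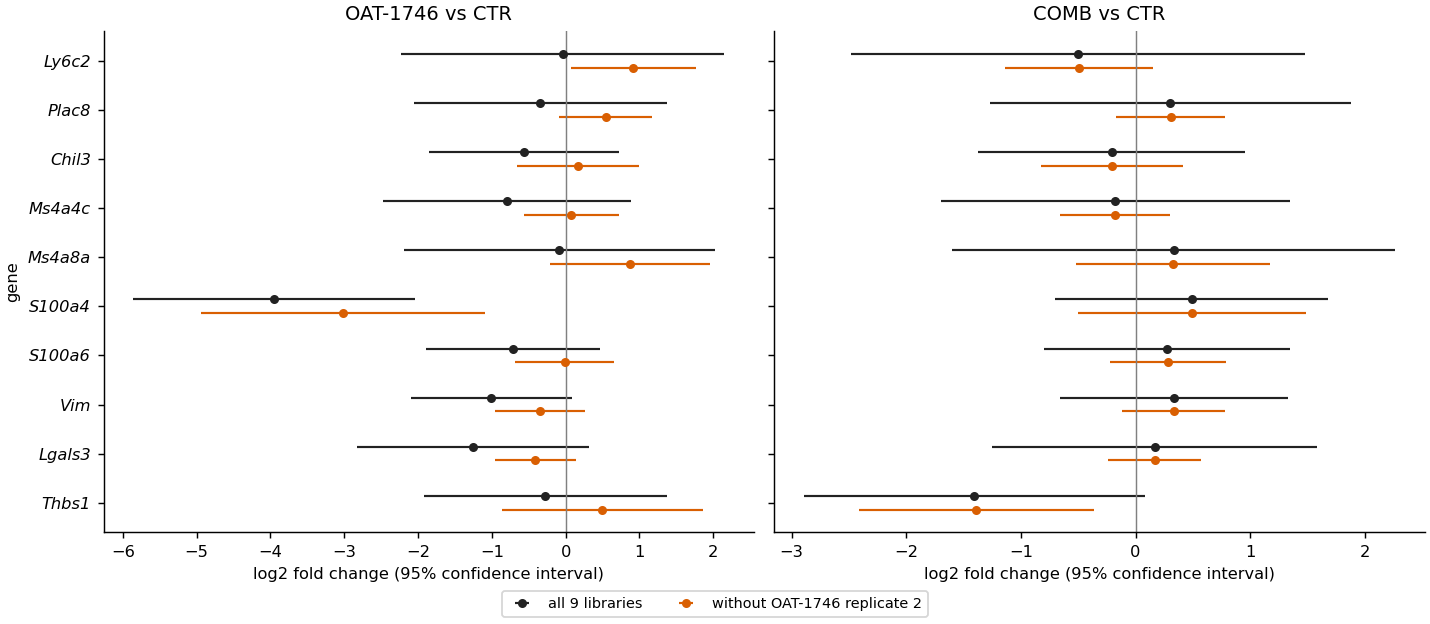
Log2 fold changes with 95% confidence intervals of the 10 markers in OAT-1746 against CTR (left) and COMB against CTR (right), from the fit to all 9 libraries (black) and the fit without OAT-1746 replicate 2 (orange). Leaving out that library takes Ly6c2 in OAT-1746 from -0.04 to 0.92 and leaves its COMB value at -0.50.

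Within the OAT-1746 group, replicate 2 had less of each marker than replicate 1. The CPM in replicate 1 was 23.4 times that in replicate 2 for Ly6c2, 22.8 times for Ms4a8a, 10.5 times for Plac8, 9.64 times for Ms4a4c and 8.04 times for Lgals3. For Thbs1, Chil3, S100a6 and Vim it was 5.46, 4.47, 4.14 and 3.58 times. The median log2 ratio of replicate 2 to replicate 1 (0.5 CPM added to each) was -2.72 over the markers and 0.00 over all tested genes. A log2 ratio below -2 was seen for 8 of 10 markers and 1.66% of tested genes, and for Ly6c2 no tested gene had a lower ratio. Replicate 2 was the lowest of the 9 libraries for 9 of 10 markers, against 31.6% of tested genes. By comparison, CTR replicate 2 exceeded CTR replicate 1 at most 2.29-fold, for Ly6c2. Since these markers were picked with the low value of this library known, the counts describe that library and are no test.

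**Figure D3:**
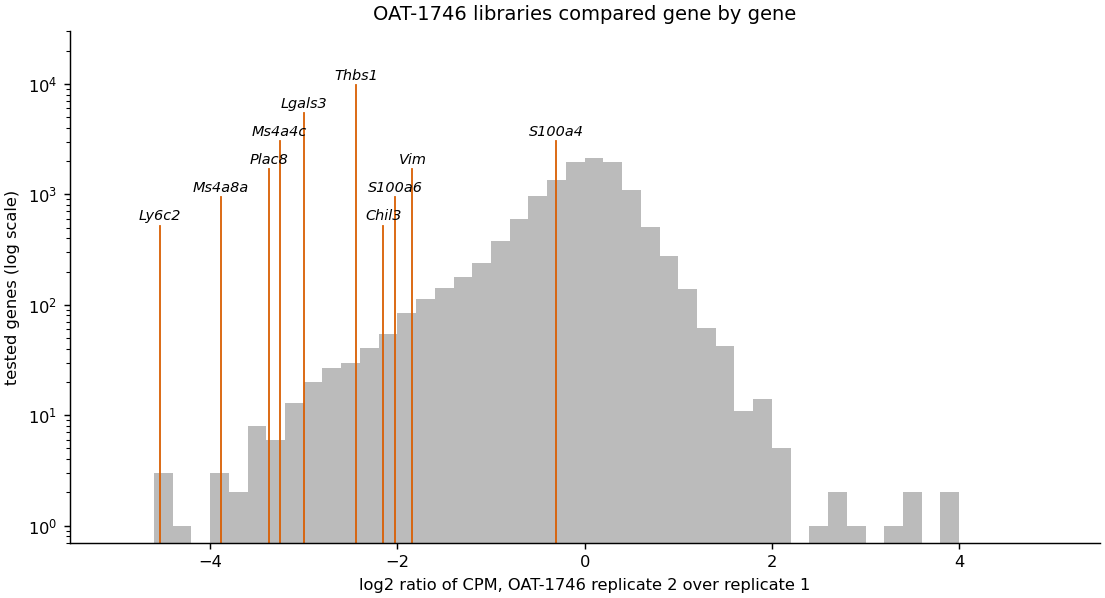
Log2 ratio of CPM in OAT-1746 replicate 2 over replicate 1 for all 12538 tested genes (grey, number of genes on a log scale), with the 10 markers as orange lines. The markers lie between -4.53 (Ly6c2) and -1.84 (Vim), except S100a4 at -0.30, whose counts were 2 and 0, and the median of all genes is 0.00.

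In OAT-1746 replicate 1 alone the markers fell into 3 sets. Ly6c2, Plac8, Ms4a8a and Thbs1 lay above both CTR libraries, Chil3, Ms4a4c and S100a6 lay between them, and Vim, Lgals3 and S100a4 lay below both. Replicate 2 lay below both CTR libraries for all 10, against 42.4% of tested genes, and replicate 1 for 3 of 10, against 39.9%. Replicate 1 lay above both for 4 of 10, against 4690 of 12538 tested genes.

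In anti-PD-1 against CTR, all 10 log2 fold changes were above 0, with a median of 0.61 against 0.02 over all tested genes. Leaving out 1 library moved it between 0.33 (without CTR replicate 1) and 1.02 (without CTR replicate 2). The largest were those of S100a4 (1.31, SE 0.56), S100a6 (1.23, SE 0.52) and Plac8 (1.01, SE 0.77). For 7 of 10 markers (Ly6c2, Plac8, Ms4a4c, S100a4, S100a6, Vim and Lgals3) both anti-PD-1 libraries lay above both CTR libraries, against 20.6% of tested genes, and for Chil3, Ms4a8a and Thbs1 the groups overlapped. None of the 10 was called by edgeR, as with all other genes (0.0%), and the lowest adjusted p among them was 0.951. At an unadjusted p under 0.05, 642 genes differed, 399 of them higher (3.18% of those tested), including S100a4 and S100a6, while DESeq2 called 14 genes, limma voom 0, and neither called a marker. The interval for S100a6 reached from 0.05 to 2.41. Chil3 and Thbs1 changed sign when a CTR or anti-PD-1 library was left out, with Chil3 at -0.17 without anti-PD-1 replicate 1 and Thbs1 at -0.44 without replicate 2.

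COMB libraries lay close to CTR for most markers. The median log2 fold change was 0.22 against -0.00 over all tested genes, with 6 of 10 above 0, and it ran from -0.07 without CTR replicate 1 to 0.31 without COMB replicate 1. With S100a4 at the near end of its counting interval it was 0.02. Thbs1 had the lowest value, -1.41 (SE 0.66, 95% interval -2.89 to 0.08), and was lower in 3 of 3 COMB libraries than in any CTR library. It was the only marker lower without overlap (1 of 10, against 15.8% of tested genes), and its adjusted p was 0.757 by edgeR. S100a4 and S100a6 were the 2 of 10 markers that were higher without overlap (12.1% of tested genes), at 0.49 (SE 0.53) and 0.28 (SE 0.48). No marker was called, nor any other gene (0.0% by edgeR), and 825 genes differed at an unadjusted p under 0.05 (3.37% of those tested were lower, with no marker among them), with 35 called by DESeq2 and 2 by limma voom, none of them a marker. For Ly6c2 the value was -0.50, and 0.21 without CTR replicate 2.

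In COMB against anti-PD-1 alone, all 10 log2 fold changes were below 0, with a median of -0.72 against -0.01 over all tested genes (-0.58 with S100a4 at the near end of its counting interval). Leaving out 1 library moved the median between -0.79 and -0.40, without anti-PD-1 replicate 2 and 1. Thbs1 (-1.59, SE 0.66) and Ly6c2 (-1.17, SE 0.87) had the lowest, and 6 of 10 markers were lower without overlap, against 16.4% of tested genes. These were Ly6c2, Plac8, Ms4a4c, S100a4, S100a6 and Thbs1, whereas the groups overlapped for Chil3, Ms4a8a, Vim and Lgals3. Ms4a8a was at -0.15, and at 0.12 without anti-PD-1 replicate 1 or COMB replicate 1. No gene was called by edgeR (0.0%), with 907 at an unadjusted p under 0.05, of which 659 were lower (5.26% of those tested), Thbs1 among them. DESeq2 called 47 genes and limma voom 35, none of them a marker (S100a4 had no adjusted p from DESeq2), while edgeR called 38 genes without OAT-1746 replicate 2 and 43 without replicate 1. In a fit of only these 2 groups Ly6c2 reached an adjusted p of 0.0494 (edgeR, log2 fold change -1.16), range over its alternatives 0.0494 to 1.00. Both comparisons share the anti-PD-1 libraries, so a high value there raises the one and lowers the other.

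Against OAT-1746 alone, 1 of 10 markers was called in COMB, compared with 15.8% of tested genes (1979 of 12538 by edgeR, 3062 by DESeq2 and 2808 by limma voom). This was S100a4, with 61 counts in 3 COMB libraries and 2 counts in 2 OAT-1746 libraries, a ratio of 24.7 (95% counting interval 6.56 to 209) and an edgeR adjusted p of 0.0205. Every COMB library exceeded every OAT-1746 library. The call was lost without OAT-1746 replicate 2, where the log2 fold change was 3.51 against 4.44 with all 9 libraries. It was also lost without COMB replicate 2 or 3, when only the groups compared were fitted and with a replicate block (adjusted p over its alternatives 0.00105 to 0.217). The median of the markers was 0.63, and -0.25 without OAT-1746 replicate 2. At an unadjusted p under 0.05, 2 of 10 markers were higher, S100a4 and Vim, against 18.3% of tested genes. DESeq2 called 2 of 10 markers, S100a4 and Vim, and limma voom 4 of 10, these and S100a6 and Lgals3. Vim (1.34, SE 0.46) had an adjusted p of 0.0710 by edgeR, 0.0116 by DESeq2 and 0.0190 by limma voom (range over its alternatives 0.00153 to 0.234). Lgals3 (1.42, SE 0.66) had 0.147 by edgeR and 0.0253 by limma voom (range 0.000358 to 0.299), and S100a6 (0.99, SE 0.49) had 0.169 and 0.0458 (range 0.00219 to 0.588). Without OAT-1746 replicate 1 edgeR called every marker but Thbs1, which again restates how the markers were chosen. By values, 4 of 10 markers were higher without overlap (25.0% of tested genes). The number of called genes itself moved from 1 without COMB replicate 3 to 4058 without OAT-1746 replicate 1, and it was 27 without OAT-1746 replicate 2.

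The interaction, which sets COMB over anti-PD-1 against OAT-1746 over CTR, was called for 0 of 10 markers and 45 of 12538 genes (0.359%) by edgeR. S100a4 was the only marker at an unadjusted p under 0.05, where 3281 genes lay, and DESeq2 called 1053 genes and limma voom 428, with no marker among them. S100a4 had no adjusted p from DESeq2 here. The median of the markers was 0.00. It was -0.85 without OAT-1746 replicate 2 and 2.31 without replicate 1, and the 8 markers that edgeR called in the latter fit restate their choice by the low replicate 2. The number of genes called ran from 0 without CTR replicate 1 to 2756 without OAT-1746 replicate 1.

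Other genes of the same cells were low in the same library. Of 14 further genes of classical monocytes, all 14 lay below both CTR libraries in OAT-1746 replicate 2 (42.4% of tested genes), and 8 of 14 in replicate 1 (39.9%). Lyz2 was at 4793 and 4296 CPM in CTR, 3140 and 919 CPM in OAT-1746, 4268 and 5181 CPM in anti-PD-1, and 3857, 2985 and 3153 CPM in COMB. Ms4a6c and Ifitm3, which encodes an interferon-induced antiviral protein, were at 110.4 and 121 CPM in OAT-1746 replicate 2 against 629 and 630.3 CPM in replicate 1. Fcgr1, an Fc receptor gene that microglia express as well, was at 637 and 864 CPM in the same 2 libraries. Medians against CTR were -0.93 for OAT-1746 (-0.41 without replicate 2), 0.10 for anti-PD-1 and -0.26 for COMB. EdgeR and limma voom called 0 of the 14 in these comparisons, and DESeq2 called 4 lower in OAT-1746 (15.7% of tested genes in either direction). These were Ccr2, Fn1, Cd44 and F13a1 (DESeq2 adjusted p = 0.0422, 0.0143, 0.0390 and 0.0486, ranges over the alternatives 0.000833 to 0.286, 0.00731 to 0.335, 0.000676 to 0.297 and 0.0302 to 0.384), with 7 lower at an unadjusted p under 0.05 by edgeR (16.2% of tested genes).

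Of 12 further genes of monocyte-derived macrophages, 12 were lowest in OAT-1746 replicate 2 (31.6% of tested genes). Tgfbi, a matrix protein gene induced by TGF-β, was at 5703 and 4298 CPM in CTR, 2621 and 366 CPM in OAT-1746, 3088 and 4815 CPM in anti-PD-1, and 3335, 5830 and 6091 CPM in COMB. The integrin gene Itgal and the cytoskeletal gene Tagln2 had 78.6 and 85.3 CPM in OAT-1746 replicate 2, and the annexin gene Anxa2 had 42.1 CPM, against 364, 269 and 161 CPM in replicate 1. Against CTR the list medians were -0.94 for OAT-1746, 0.47 for anti-PD-1 and 0.00 for COMB. EdgeR and limma voom called 0 of the 12, and DESeq2 called Lmna (adjusted p = 0.000559, range over its alternatives 0.000559 to 0.285) and Tgfbi (adjusted p = 0.0403, range 0.00187 to 0.353) lower in OAT-1746 (15.7% of tested genes in either direction), with 5 lower at an unadjusted p under 0.05 by edgeR (16.2% of tested genes). Without OAT-1746 replicate 2 the first of these was -0.29, with 11 of 12 genes below 0.

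In COMB against OAT-1746, 2 of 14 and 1 of 12 genes of these lists were called by edgeR, all higher, against 15.8% of tested genes. DESeq2 called 3 and 7 (24.4% of tested genes) and limma voom 3 and 8 (22.4%). Lmna, which encodes nuclear lamins, was at 10.2 and 6.87 CPM in OAT-1746 and 21.8, 19.8 and 21.8 CPM in COMB (log2 fold change 1.30, SE 0.22, adjusted p = 0.0192). Mgst1, a glutathione transferase gene, was at 23.5 and 7.61 CPM in OAT-1746 and 32.3, 61.7 and 56.2 CPM in COMB (1.69, SE 0.45, adjusted p = 0.0391). F13a1, the gene of coagulation factor XIII, was at 175 and 134 CPM in OAT-1746 and 209, 268 and 292 CPM in COMB (0.73, SE 0.20, adjusted p = 0.0426). Each exceeded both OAT-1746 libraries in 3 of 3 COMB libraries. Each call was lost without OAT-1746 replicate 2, where the log2 fold changes were 1.03, 1.07 and 0.53. The calls were also lost without COMB replicate 2 or 3, in a fit of only the groups compared and with a replicate block. Adjusted p ranged over the alternatives from 3.8e-05 to 0.177, 0.00146 to 0.217 and 0.00618 to 0.244. Mgst1 and F13a1 kept their calls in only 2 of 9 fits that left out 1 library, without OAT-1746 replicate 1 and without COMB replicate 1.

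In COMB against anti-PD-1, edgeR called 0 of 14 and 0 of 12, and DESeq2 and limma voom each called 1 of 14, Vcan, a proteoglycan gene (0.375% and 0.279% of tested genes). Vcan was at 19.64 and 19.65 CPM in CTR, 28.05 and 6.41 CPM in OAT-1746, 49.1 and 60.5 CPM in anti-PD-1, and 15.35, 6.335 and 9.925 CPM in COMB, lower in 3 of 3 libraries. Its log2 fold change was -2.38 (SE 0.52), with an adjusted p of 0.424 by edgeR, 0.00394 by DESeq2, 0.0268 by limma voom and 0.0390 by edgeR without OAT-1746 replicate 2 (range over its alternatives 0.00394 to 1.00). In the interaction DESeq2 called Vcan lower and Mgst1 and Lmna higher (8.40% of tested genes), and edgeR and limma voom called none of the 2 lists.

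Signals that recruit monocytes or sustain macrophages were measured in 10 genes. Csf1r, the receptor gene of both macrophage growth factors, was at 6299 and 7839 CPM in CTR and 9939 and 11550 CPM in OAT-1746, so that both OAT-1746 libraries lay above both CTR libraries. The chemokine gene Ccl7 was at 79.5 and 67.2 CPM in CTR, 29.7 and 12.99 CPM in OAT-1746, 76.3 and 122 CPM in anti-PD-1, and 52.1, 78.3 and 64.7 CPM in COMB. It was called higher in COMB than in OAT-1746 (log2 fold change 1.61, SE 0.36, edgeR adjusted p = 0.0287, higher in 3 of 3 libraries). This was 1 of 10 genes, against 15.8% of tested genes. In that comparison DESeq2 called 2 lower and 1 higher (24.4%), and limma voom 2 lower and 2 higher (22.4%), with Csf1 and Cx3cr1 lower by both. The edgeR call of Ccl7 was lost without OAT-1746 replicate 2 (log2 fold change 1.11) and without COMB replicate 2 or 3. It was also lost in a fit of only the groups compared and with a replicate block (adjusted p over its alternatives 0.000209 to 0.217). No other gene of this list was called by edgeR in any comparison with all 9 libraries, while Ccl2 was called lower in COMB against anti-PD-1 without OAT-1746 replicate 2 (adjusted p = 0.0390, range over its alternatives 0.0251 to 1.00). DESeq2 called 4 of 10 in OAT-1746 against CTR (15.7% of tested genes) and gave no adjusted p for Il34. Ccl7 and Ccl2 were lower and Csf1r and Cx3cr1 higher (DESeq2 adjusted p = 0.000642, 0.0352, 0.0309 and 0.0273). Over the alternatives other than leaving out 1 library, the highest adjusted p was 0.211, 0.219, 0.256 and 0.218. Ccl2 was at 119.5 and 107.5 CPM in CTR and 81.8 and 38.7 CPM in OAT-1746.

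Of 6 genes of non-classical monocytes, the patrolling cells of blood, 5 were lowest in OAT-1746 replicate 2 (31.6% of tested genes). In replicate 1, 4 of the 6 lay above both CTR libraries (4690 of 12538 tested genes). Ace, which encodes angiotensin-converting enzyme, was at 32.4 and 43.8 CPM in CTR, 68.7 and 22.3 CPM in OAT-1746, 90.6 and 93.9 CPM in anti-PD-1, and 43.3, 32.9 and 34.2 CPM in COMB. All 6 genes of the list had a log2 fold change above 0 in anti-PD-1 against CTR and none was called there by edgeR, DESeq2 or limma voom. Of 5 genes for partners of thrombospondin-1, none was called by edgeR in any comparison with all 9 libraries (15.8% of tested genes in COMB against OAT-1746). In COMB against OAT-1746, DESeq2 called 1 of them higher (24.4% of tested genes) and limma voom 1 lower (22.4%). Tgfb1, the most abundant of them, was at 754 and 699 CPM in CTR and 613, 599 and 594 CPM in COMB.

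Homeostatic genes of microglia were high in both OAT-1746 libraries. The summed level of the 12 genes was 14970 and 23850 CPM in CTR, 31800 and 39750 CPM in OAT-1746, 22570 and 18340 CPM in anti-PD-1, and 27580, 20550 and 19380 CPM in COMB. The 10 monocyte markers summed to 3122 and 4254 CPM in CTR, 4090 and 576 CPM in OAT-1746, 5931 and 5403 CPM in anti-PD-1, and 3152, 4085 and 3992 CPM in COMB. No gene of the microglial list was at 0 in any library. All 12 microglial genes lay above both CTR libraries in both OAT-1746 libraries (30.8% of tested genes higher without overlap), and 12 of 12 had an unadjusted p under 0.05 (16.1% of tested genes, higher), while edgeR and limma voom called 0 and DESeq2 called 10 (15.7% of tested genes). The median log2 fold change was 0.95, and 0.78 without OAT-1746 replicate 2. Their part in the marker values was not tested. In COMB against OAT-1746, P2ry12, a purine receptor gene, and Sall1, a microglial transcription factor gene, were called lower (log2 fold change -1.08 and -1.06, SE 0.28 and 0.25, edgeR adjusted p = 0.0383 and 0.0331, lower in 3 of 3 libraries). These were 2 of 12 called by edgeR (15.8% of tested genes in either direction), against 6 by DESeq2 (24.4%) and 6 by limma voom (22.4%), and all 12 were lower without overlap (28.9%). Both edgeR calls were lost without either anti-PD-1 library, without COMB replicate 2 or 3 and without OAT-1746 replicate 2. They were also lost in a fit of only the groups compared and with a replicate block (adjusted p over the alternatives 0.00522 to 0.231 and 0.00336 to 0.227).

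**Figure D4:**
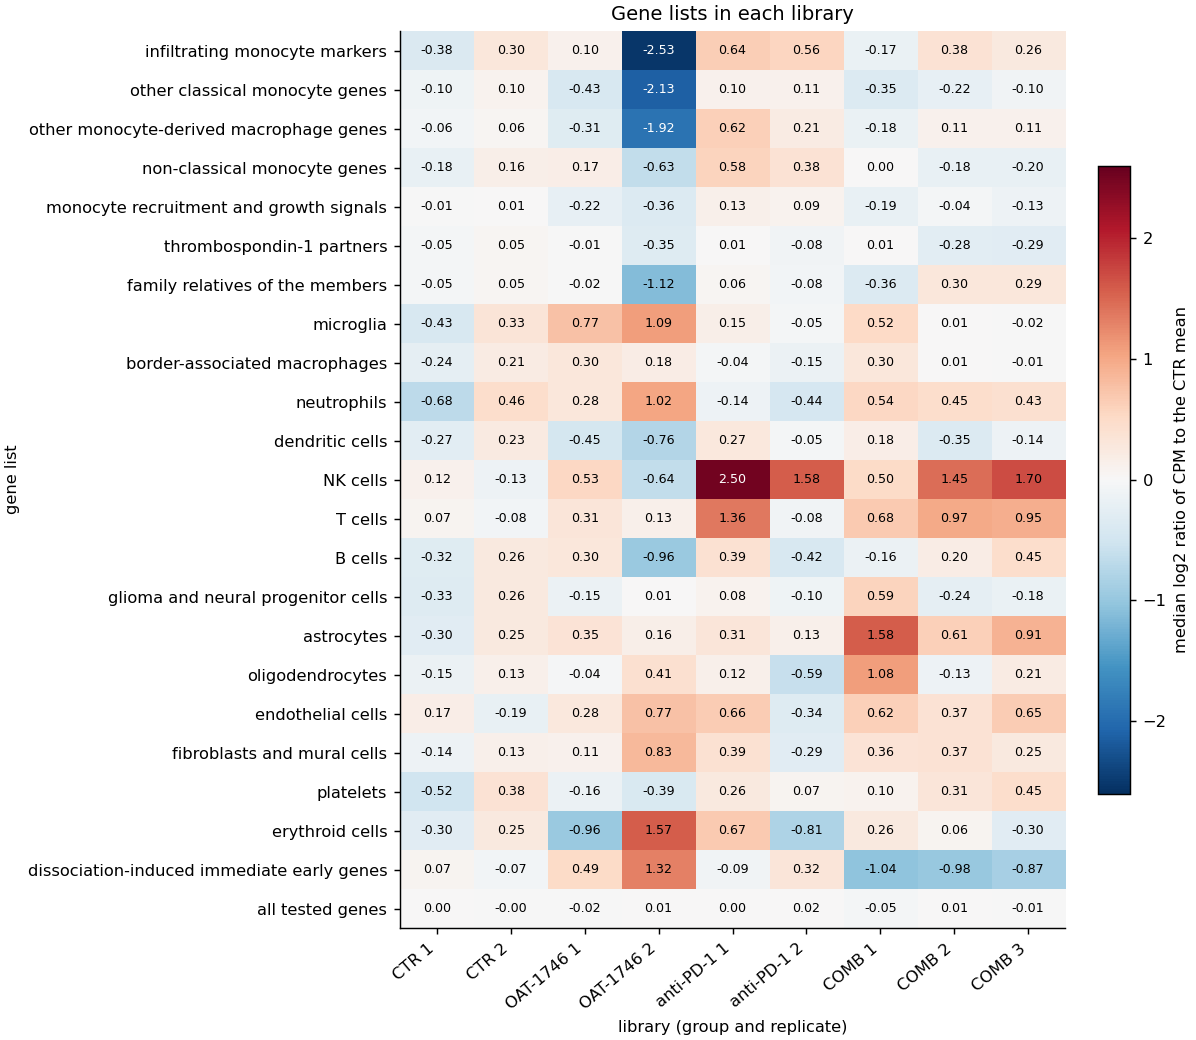
Median log2 ratio of CPM to the CTR mean (0.5 CPM added) for each gene list (rows) in each library (columns), with all tested genes in the last row. In OAT-1746 replicate 2 the monocyte markers are at -2.53, the microglial genes at 1.09 and all tested genes at 0.01.

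Immediate early genes, which are induced by enzymatic dissociation as well as by stimulation of cells, also separated these libraries. The 8 genes summed to 9221 and 8532 CPM in CTR, 13170 and 19790 CPM in OAT-1746, 8635 and 10910 CPM in anti-PD-1, and 4799, 5249 and 5357 CPM in COMB. Junb was the most abundant and none was at 0. OAT-1746 replicate 2, with the lowest monocyte markers, had the highest sum, and COMB had the lowest sums with markers near CTR levels. In COMB against OAT-1746, 7 of 8 were called lower by edgeR (15.8% of tested genes in either direction), with log2 fold changes from -1.25 for Junb (SE 0.22, adjusted p = 0.0202) to -3.998 for Fosb (SE 0.64, adjusted p = 0.0171), each lower in 3 of 3 libraries. The others were Fos (-1.57, adjusted p = 0.0192), Ier2 (-1.67, 0.00322), Atf3 (-2.16, 0.0161), Jun (-2.29, 0.00528) and Egr1 (-3.74, 0.00148), and without OAT-1746 replicate 2 only Egr1, Jun and Ier2 were called. With a replicate block only Egr1 was called, and in a fit of only the groups compared Egr1, Jun and Ier2. Without COMB replicate 3 only Egr1 was called, and without COMB replicate 2 Egr1, Jun and Ier2. Their part in the marker values was not tested.

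NK and T cell genes were higher in anti-PD-1 than in CTR by their medians, at 2.38 for 7 NK cell genes and 1.94 for 7 T cell genes. The T cell value rested mainly on 1 library, since the median log2 ratio to the CTR mean was 1.37 in anti-PD-1 replicate 1 and -0.08 in replicate 2, and the sums were 11.8 and 9.88 CPM in CTR and 27.7 and 14.2 CPM in anti-PD-1. Of the T cell genes 6 were above 0 and 2 had an unadjusted p under 0.05, with none called by any tool (Cd3d and Cd8b1 had no adjusted p from DESeq2), and the value for 3 B cell genes was -0.12. The 7 NK cell genes summed to 33.3 and 29.9 CPM in CTR, 48.8 and 14.8 CPM in OAT-1746, 203 and 104 CPM in anti-PD-1, and 42.6, 91.5 and 99.6 CPM in COMB. Gzma, which encodes a granzyme, was the most abundant and no gene was at 0. All 7 were higher without overlap in anti-PD-1 than in CTR (20.6% of tested genes) and at an unadjusted p under 0.05 (3.18%). EdgeR and limma voom called 0 of them and DESeq2 3 (0.112% of tested genes), and 5 of 7 were lowest in OAT-1746 replicate 2 (31.6%). The libraries with the highest monocyte markers were thus also those with the highest NK cell genes, and the part of either in the other was not tested.

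The genes whose pattern over the 9 libraries was most like that of the markers were Gm14548, Xaf1, Phf11b, Klrk1, Irf7 and Ifi27l2a. Likeness was the Pearson r between the log2 CPM of a gene and the mean standardized log2 CPM of the 10 markers, and is a description over libraries that share their groups. It was 0.995 for Gm14548, 0.994 for Xaf1 and Phf11b, 0.993 for Klrk1, and 0.990 for Irf7 and Ifi27l2a. Irf7, a regulator of the interferon response, was at 626 and 918 CPM in CTR, 879 and 98.1 CPM in OAT-1746, 1129 and 1103 CPM in anti-PD-1, and 569, 675 and 672 CPM in COMB. Over the 8 libraries without OAT-1746 replicate 2, r was between 0.891 for Irf7 and 0.989 for Xaf1, with the profile recomputed. Klrk1 encodes NKG2D, a receptor of NK and T cells.

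The markers themselves differed in how closely they followed one another. Against the mean profile of the other 9, r was 0.991 for Ms4a4c, 0.985 for Plac8, 0.947 for S100a6, 0.943 for Lgals3, 0.942 for Chil3, 0.934 for Ly6c2, 0.923 for Vim and 0.920 for Ms4a8a over the 9 libraries. It was 0.713 for S100a4 and 0.461 for Thbs1. Without OAT-1746 replicate 2 it was highest for Ms4a4c (0.926), Plac8 (0.896) and S100a6 (0.869), between 0.497 and 0.634 for Ly6c2, Chil3, Ms4a8a, S100a4, Vim and Lgals3, and 0.131 for Thbs1. Thbs1 therefore did not follow the other markers in these libraries.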

How the data were processed

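The authors sequenced poly-A RNA of sorted CD11b+ cells as stranded paired-end libraries, trimmed reads with Trimmomatic, aligned them with STAR to mm10, and deposited HTSeq counts per gene, the only unit used. The deposited counts were joined to GENCODE M21 by Ensembl identifier (53620 of 53801 genes found, 181 not), and 21890 protein-coding genes were kept. The fit used R 4.3.3 and edgeR 4.0.16: filterByExpr with a minimum count of 10 (12538 genes left), TMM scaling, 1 mean per group over all 9 libraries, the quasi-likelihood F test and Benjamini-Hochberg adjustment over all tested genes, with calls at an adjusted p under 0.05. CPM and RPKM were computed from the counts and the TMM-scaled totals over the 12538 tested genes. A count of 3 corresponds to 0.169 to 0.223 CPM. The common biological coefficient of variation was 0.214. The scripts were tested on simulated counts.

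Each treated group was compared with CTR, and COMB with each single agent, and the interaction of the agents was tested. Alternatives were DESeq2 1.42.0 (Wald test), its size factors, library size only, no low-count filter, 10 counts in every library, all genes, robust estimation, limma 3.58.1 voom with quality weights, only the groups compared, a replicate block, and leaving out each library. The genes named are the 10 markers and in 2 further monocyte lists the 4 most abundant and any called by edgeR with all 9 libraries, in each other list the most abundant and any so called, some genes that only another tool or fit called, relatives of a marker, and the 6 genes most like the markers. The members and lists were chosen with earlier results of these data known. The annotation release of the deposited counts was not stated. Figures were drawn with matplotlib 3.10.9.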

Additional observations from a re-analysis of the deposited data

Results flagged for a closer look

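A difference between groups was flagged for 4 immediate early genes, by the test of the interaction: the log2 fold change of COMB over anti-PD-1 differed from that of OAT-1746 over CTR. The log2 difference was -3.87 for Egr1 (edgeR adjusted p = 0.0285), -2.79 for Jun (adjusted p = 0.0290), -2.90 for Atf3 (adjusted p = 0.0499) and -1.73 for Ier2 (adjusted p = 0.0304). Egr1 was at 767 and 851 CPM in CTR, 2591 and 3730 CPM in OAT-1746, 654 and 1117 CPM in anti-PD-1, and 224, 231 and 256 CPM in COMB. All COMB libraries lay below all others and both OAT-1746 libraries above them. The calls for Egr1 and Jun were lost without CTR replicate 1 or 2, anti-PD-1 replicate 2, or COMB replicate 2 or 3, and with a replicate block. Ier2 kept its call in 3 of 9 fits that left out 1 library and lost it with a replicate block. Atf3 kept its call in 2 of 9 and lost it with a replicate block, DESeq2 size factors, library size only and all genes. These genes respond both to stimulation and to enzymatic dissociation, and the 2 cannot be told apart here.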

How the results depend on the processing

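Of 2046 alternative values for single genes, 1739 kept their direction and their side of the 0.05 threshold, whatever the size of the move, 105 gained and 150 lost a call in the same direction, and 52 changed sign. Of 114 counts of calls, 73 stayed within a factor of 1.5, limma voom in COMB against OAT-1746 (2808 against 1979) among them. Of 113 medians, 110 moved by less than 1.06, the pooled SD over libraries of the markers' median log2 CPM. OAT-1746 replicate 2 widens this limit, with a median log2 ratio to the CTR mean of -2.53 against 0.10 in replicate 1. A move within the limit is therefore no sign of stability. The medians of the markers in OAT-1746 against CTR, COMB against OAT-1746 and COMB against CTR (-0.07 without CTR replicate 1) changed sign within that limit. With 2 or 3 libraries per group, leaving 1 out of a group of 2 leaves a lone sample that is assumed to vary like the other groups. Low counts limit S100a4, for which a minimum of 10 counts in every library gave no value. The part of depth or of the overlap with Gm42674 in these low counts was not tested. The cause of the changes below was not tested. Calls by DESeq2 numbered 1972 in OAT-1746 against CTR, 14 in anti-PD-1 against CTR, 35 in COMB against CTR, 47 in COMB against anti-PD-1, 3062 in COMB against OAT-1746 and 1053 in the interaction. With no low-count filter, calls by edgeR numbered 587 in OAT-1746 against CTR, 2 in COMB against CTR, 2 in COMB against anti-PD-1 and 146 in the interaction. Limma voom called 2 genes in COMB against CTR, 35 in COMB against anti-PD-1 and 428 in the interaction. Fits of only the groups compared called 5, 17 and 30 genes in COMB against CTR, anti-PD-1 and OAT-1746. The interaction had 24 calls with library size only and 18 with all genes. Leaving out 1 library, calls ranged from 0 to 3647 in OAT-1746 against CTR, 0 to 43 in COMB against anti-PD-1, 1 to 4058 in COMB against OAT-1746 and 0 to 2756 in the interaction. The medians of the markers ranged from -3.04 to 0.12, -0.25 to 3.09 and -0.85 to 2.31 in OAT-1746 against CTR, COMB against OAT-1746 and the interaction.

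These log2 values changed sign when 1 library was left out, given as lowest and highest. In OAT-1746 against CTR: Ly6c2 -3.65 to 0.92, Plac8 -2.86 to 0.54, Chil3 -2.02 to 0.16, Ms4a4c -3.21 to 0.08, Ms4a8a -3.64 to 0.87, Thbs1 -1.97 to 0.50. In anti-PD-1 against CTR: Chil3 -0.17 to 0.76, Thbs1 -0.44 to 0.76. In COMB against CTR: Ly6c2 -0.98 to 0.21, Plac8 -0.02 to 0.72, Chil3 -0.59 to 0.30, Ms4a4c -0.45 to 0.16, Ms4a8a -0.12 to 1.00. In COMB against anti-PD-1: Ms4a8a -0.34 to 0.12. In COMB against OAT-1746: Ly6c2 -1.42 to 3.15, Plac8 -0.24 to 3.16, Chil3 -0.36 to 1.81, Ms4a4c -0.26 to 3.03, Ms4a8a -0.54 to 3.98, Thbs1 -1.89 to 0.56. In the interaction: Ly6c2 -2.06 to 2.47, Plac8 -1.22 to 2.15, Chil3 -0.59 to 1.56, Ms4a4c -0.79 to 2.48, Ms4a8a -0.998 to 3.50, S100a6 -0.92 to 1.12, Thbs1 -2.04 to 0.38. Sign also changed with library size only: Ly6c2 0.0063 in OAT-1746 against CTR. Sign also changed with limma voom with quality weights: Ms4a8a 0.0518 in COMB against anti-PD-1, Ly6c2 0.819 in COMB against OAT-1746, Ly6c2 0.0338 in the interaction, Plac8 0.411 in the interaction, Ms4a8a 1.34 in the interaction, S100a6 0.186 in the interaction. Sign also changed with the replicate block: Ms4a8a 0.0732 in the interaction, S100a6 0.0417 in the interaction. Among these, Ms4a4c was 0.0784 in OAT-1746 against CTR without OAT-1746 replicate 2 and Plac8 -0.0233 in COMB against CTR without CTR replicate 1.

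The replicate numbers were not treated as pairs. Correlations of deviations from the group means between same-numbered libraries ran from -0.349 to 0.0999. In a group of 2 libraries the deviations mirror each other, so these few values cannot decide whether samples were paired. With a replicate block, calls numbered 0 in each comparison with CTR and in COMB against anti-PD-1, 2 in COMB against OAT-1746 and 0 in the interaction. With the anti-PD-1 numbers crossed, chosen after seeing the data, anti-PD-1 against CTR had 0 calls in the replicate block.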

Other observations

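Neutrophil genes did not share the low value of OAT-1746 replicate 2. The 12 genes summed to 332 and 525 CPM in CTR, 559.9 and 761 CPM in OAT-1746, 399.9 and 391 CPM in anti-PD-1, and 481, 484 and 483 CPM in COMB. Their sum was highest in OAT-1746 replicate 2 and lowest in CTR replicate 1, and no gene was at 0. Csf3r, the most abundant, was called lower in COMB than in OAT-1746 (log2 fold change -0.74, SE 0.17, edgeR adjusted p = 0.0302, lower in 3 of 3 libraries). Its call was kept in 4 of 9 fits that left out 1 library and lost without OAT-1746 replicate 2 (log2 fold change -0.59). The call was also lost in a fit of only the groups compared and with a replicate block (adjusted p over its alternatives 0.00199 to 0.218).

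Other cell types that a CD11b+ sort can carry over were followed by their marker lists, and their part in the marker values was not tested. In OAT-1746 against CTR the median log2 fold changes were 0.34 for 7 genes of border-associated macrophages (most abundant Stab1), -0.68 for 8 of dendritic cells (Ccr7) and 0.43 for 7 of 8 of T cells (Cd4, with Cd3d, Cd3e, Cd3g and Cd8b1 at 0 in some libraries). They were -0.44 for 3 of 5 of B cells (Cd79b), -0.41 for 3 of 5 of platelets (Pf4, with Gp1ba at 0 throughout) and 0.80 for 5 of erythroid cells (Hbb-bs). Lists of glioma cells, astrocytes, oligodendrocytes, endothelial cells, and fibroblasts and mural cells had 0.00, 0.29, 0.26, 0.57 and 0.55 (most abundant Nes, Slc1a2, Mbp, Flt1 and Rgs5). Without OAT-1746 replicate 2 the medians changed sign for B cells (0.57), erythroid cells (-3.08), glioma cells (-0.16) and oligodendrocytes (-0.02). They were then 1.15 for T cells, 0.13 for fibroblasts and mural cells, 0.30 for endothelial cells and -0.45 for dendritic cells. Border-associated macrophages, platelets and astrocytes had 0.32, -0.38 and 0.41 in that fit. None of these genes was called against CTR by edgeR or limma voom. In OAT-1746 DESeq2 called 1 gene lower and 1 higher of border-associated macrophages, and 1 lower and 1 higher of fibroblasts and mural cells. It also called 1 dendritic cell gene lower and 1 platelet gene higher (15.7% of tested genes in either direction). In COMB against OAT-1746, edgeR called Sox2 (log2 fold change 1.77, adjusted p = 0.0382), Aldh1l1 (0.98, adjusted p = 0.0425) and Col3a1 (2.25, adjusted p = 0.0380) higher and Gfap (-1.18, adjusted p = 0.0427) lower, against 15.8% of tested genes. Leaving out 1 library kept the call of Gfap in 0 of 9 fits, of Sox2 and Aldh1l1 in 1 and of Col3a1 in 3, and all 4 were lost with a replicate block and without OAT-1746 replicate 2 (log2 fold changes 1.53 for Sox2, above that of all 9 libraries for Aldh1l1, 2.62 for Col3a1 and -1.63 for Gfap, adjusted p = 0.228, 0.159, 0.181 and 0.0680, ranges over the alternatives 0.00723 to 0.228, 0.00943 to 0.230, 0.0143 to 0.224 and 0.014 to 0.240). Sox2 was at 0.815 and 0.572 CPM against 3.26, 2.18 and 1.701 CPM, Aldh1l1 at 3.73 and 5.04 CPM against 7.86, 8.31 and 9.78 CPM, Col3a1 at 0.175 and 0.286 CPM against 1.11, 1.06 and 1.21 CPM and Gfap at 11.1 and 5.32 CPM against 3.71, 4.29 and 2.84 CPM, in OAT-1746 and in COMB.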
